A study of Mus musculus with 6 samples.

Results

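The microRNAs mmu-miR-296-5p, mmu-miR-331-3p, mmu-miR-345-5p and mmu-miR-652 are 4 of the 567 mouse miRNAs on the array, and each is made from a single locus of the mouse genome. They were chosen by name, from miRNAs measured higher in fetal liver than in bone marrow on these same arrays. Their differences between the groups are therefore given as a description. Calls of the 4 in the fit over all tested miRNAs are listed by setting only, and are no evidence for them. All 8 of their probes were used, out of 1672 mouse probes. The cells were Fr. B/C cells, the pro-B stage of B lymphocyte development, sorted from BALB/c mice without any treatment or genetic change named in the labels. A bone marrow sort came from the femurs and tibias of 3 adult female mice, and a fetal liver sort came from the embryos (8 on average) of 1 mouse at day 16 of gestation. There were 3 sorts of each tissue, each on 1 one-colour array. Animals were pooled within a sort, so the spread is that between sorts and arrays. In sorted bulk samples, fewer cells with a miRNA and less of it per cell cannot be told apart.

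A miRNA is cut from an RNA hairpin, and 1 arm of the hairpin is usually kept as the guide in an Argonaute protein while the partner arm is degraded. The guide finds messenger RNAs mainly through its seed, the bases near its 5′ end, and it lowers their stability and translation. Fetal and adult B cell progenitors differ in miRNA content, and the let-7 miRNAs, which Lin28b blocks in fetal cells, are the well-known case. In mouse embryonic stem cells, miR-296 is known to target the messenger RNA of the pluripotency factor Nanog, and in human prostate cancer cells miR-331-3p is known to target that of the receptor ERBB2.

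The mature sequences are shown because the seed decides which messenger RNAs each miRNA can pair with. They were taken from RefSeq on build GRCm38.p6, where all 4 names matched, and the capitals mark the seed, bases 2 to 8. The array's name mmu-miR-652 has no arm and was matched to mmu-miR-652-3p.
mmu-miR-296-5p: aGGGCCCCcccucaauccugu
mmu-miR-331-3p: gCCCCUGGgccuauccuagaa
mmu-miR-345-5p: gCUGACCCcuaguccagugcuu
mmu-miR-652-3p: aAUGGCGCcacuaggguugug
The 4 seeds are distinct, and 0 other mature mouse miRNAs of the 1679 in RefSeq carry the seed of any of them. No seed family is therefore shared among them, and no related miRNA could be set beside them. Their share of G and C ran from 57.1% in miR-652-3p to 66.7% in miR-296-5p, where the median over the 1679 mature sequences was 52.2% and the upper quartile 60%.

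The loci lie on 4 chromosomes. Mature miR-296-5p lies at chr2:174267093-174267113 on the minus strand, beside Mir298 in the imprinted Gnas region, and within no other annotated gene. Mature miR-331-3p lies at chr10:93963783-93963803 on the minus strand, within Vezt, the gene of the adherens junction protein vezatin. Mature miR-345-5p lies at chr12:108836989-108837010 on the plus strand, between Slc25a29 and Slc25a47, genes of mitochondrial carrier proteins. Mature miR-652-3p lies at chrX:142739060-142739080 on the plus strand, within Tmem164, a gene of a membrane protein. The hairpins show where the partner arm sits, since the array also carries probes for 3 of the 4 partner arms, and the capitals mark the arm described here.
Mir296: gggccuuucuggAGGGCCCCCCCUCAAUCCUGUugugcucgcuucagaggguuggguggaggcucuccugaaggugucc
Mir331: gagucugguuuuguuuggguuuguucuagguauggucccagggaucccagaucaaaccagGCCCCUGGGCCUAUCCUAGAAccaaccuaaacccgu
Mir345: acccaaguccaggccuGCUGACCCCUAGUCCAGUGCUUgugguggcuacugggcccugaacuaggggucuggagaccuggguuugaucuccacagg
Mir652: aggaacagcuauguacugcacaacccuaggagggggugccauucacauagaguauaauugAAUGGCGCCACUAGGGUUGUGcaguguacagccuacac
The arm described is the 5′ arm in miR-296 and miR-345 and the 3′ arm in miR-331 and miR-652.

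Values are the intensity of the brighter of a miRNA's probes, background-subtracted by the scanner software and scaled between arrays (scaled signal). On the log2 scale, signals under 16.5, the common floor, were set to it (4.04). A probe counts as well above background if the software marked more than 50% of its spots on that array so. Fetal liver replicate 2 stood apart: 7.02% of its mouse spots were well above background, against 18.4% to 23.7% on the other 5 arrays. Its negative control spots had an SD of 12.1, against 2.65 to 4.13 elsewhere. All arrays shared 1 slide, with the bone marrow arrays in its first row and the fetal liver arrays in its second, so slide row and group cannot be told apart. Over all miRNAs, 135 were tested, namely those that all 3 arrays of a group marked well above background. These were 135 in bone marrow and 52 in fetal liver, so that each tested miRNA passed through bone marrow. The median difference of the tested miRNAs, fetal liver minus bone marrow, was 0.25 on the log2 scale. Every SE of a difference is moderated: the limma fit draws it towards the spread typical of all tested miRNAs. It therefore does not follow from a miRNA's own SDs alone.

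MiR-296-5p had the widest difference of the 4. In bone marrow its scaled signal was 19.9, 12.9 and 16.1 in replicates 1 to 3, and in fetal liver it was 77.0, 104.7 and 60.3. The lowest fetal liver sort was thus about 3 times the highest bone marrow sort (3.03), and the groups did not overlap. Its log2 level was 4.13 ± 0.16 (SD, n = 3) in bone marrow and 6.30 ± 0.40 (SD, n = 3) in fetal liver, a difference of 2.17 with an SE of 0.26, or 4.49-fold. It lay at the floor on 2 bone marrow arrays although it was well above background on all 3, so this fold is not exact; with a floor of 1 it was 4.90. On fetal liver replicate 2 it was not well above background, and without that array the fold was 3.89.

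MiR-331-3p was higher in every fetal liver sort, with 1 sort far above the other two. Its scaled signal was 19.8, 22.5 and 23.7 in bone marrow and 55.7, 146.5 and 46.4 in fetal liver. Even the lowest fetal liver sort was 1.96 times the highest bone marrow sort. The log2 level was 4.45 ± 0.13 (SD, n = 3) in bone marrow and 6.18 ± 0.89 (SD, n = 3) in fetal liver, a difference of 1.72 with an SE of 0.44, or 3.30-fold. The high sort was fetal liver replicate 2, and without it the fold was 2.32. MiR-331-3p was well above background on all 6 arrays, that one included.

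MiR-345-5p was also higher in every fetal liver sort, and its highest was again replicate 2. Its scaled signal was 21.4, 19.3 and 22.4 in bone marrow and 42.6, 97.1 and 52.6 in fetal liver. The lowest fetal liver sort was 1.90 times the highest bone marrow sort, so that the groups did not overlap. On the log2 scale the level was 4.39 ± 0.11 (SD, n = 3) in bone marrow and 5.91 ± 0.62 (SD, n = 3) in fetal liver, a difference of 1.52 with an SE of 0.33, or 2.86-fold. Without fetal liver replicate 2, on which it was not well above background, the fold was 2.25.

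In the values as scaled here, miR-652 had the narrowest difference and the least spread between fetal liver sorts. In the log2 values the authors deposited, the differences of miR-345-5p (0.56) and miR-331-3p (0.86) were narrower than that of miR-652 (0.89). Its scaled signal was 86.5, 89.6 and 99.3 in bone marrow and 199.8, 192.8 and 169.5 in fetal liver. The lowest fetal liver sort was 1.71 times the highest bone marrow sort, and replicate 2 lay between the other two. The log2 level was 6.52 ± 0.10 (SD, n = 3) in bone marrow and 7.55 ± 0.12 (SD, n = 3) in fetal liver, a difference of 1.03 with an SE of 0.19, or 2.04-fold. Leaving out fetal liver replicate 2 gave 2.01-fold, and miR-652 was well above background on all 6 arrays.

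**Figure D1:**
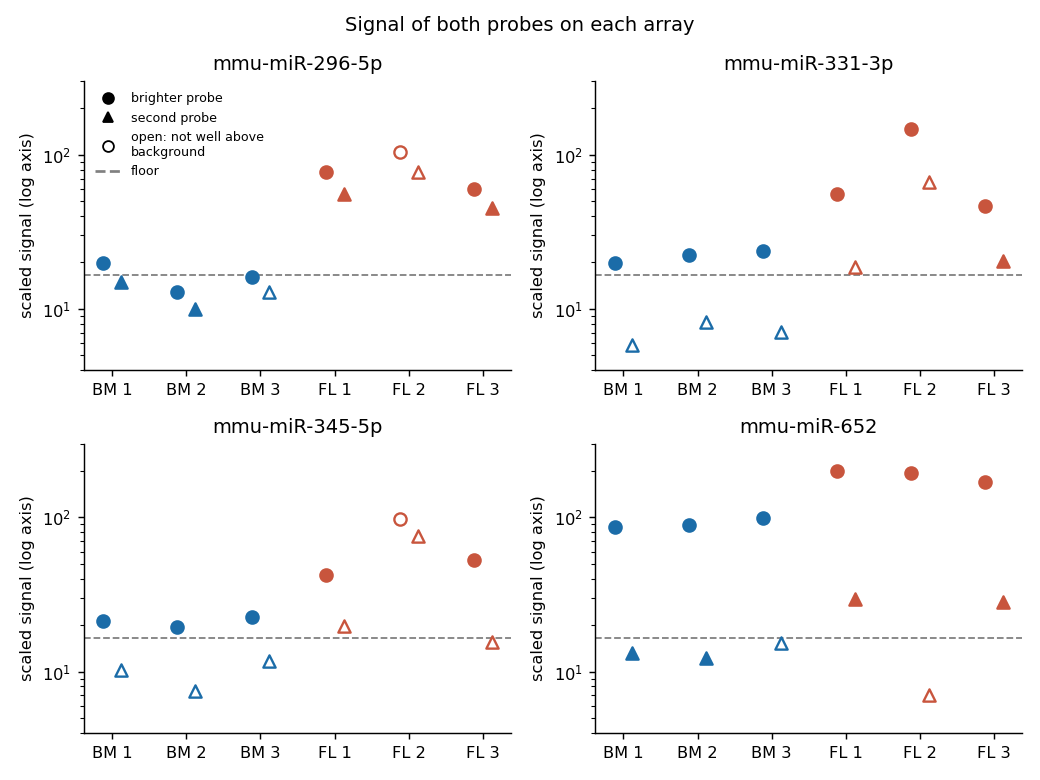
Scaled signal (log axis) of both probes of each miRNA on the 3 bone marrow (BM, blue) and 3 fetal liver (FL, red) arrays, before the floor was applied; circles are the brighter probe, triangles the second probe, open symbols were not well above background, and the dashed line is the floor of 16.5. The brighter probe of all 4 miRNAs lies higher on each fetal liver array than on any bone marrow array.

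Set beside all tested miRNAs, which leaves out any not well above background on all 3 bone marrow arrays, the difference of miR-296-5p was the 3rd highest of 135, that of miR-331-3p the 6th, that of miR-345-5p the 8th and that of miR-652 the 15th. Under 17 alternative settings these ranks ran from 2 to 7, 5 to 16, 7 to 17 and 8 to 35, in the same order. Differences over the tested miRNAs ran from -4.11 to 2.57, with quartiles of -0.35 and 0.68. In limma with Benjamini-Hochberg adjustment over all 135, 29 miRNAs were called at an adjusted p under 0.05, 14 of them higher in fetal liver. The 4 miRNAs are among those 14, which are 10.4% of the tested miRNAs. They are also among the 30 miRNAs, 22.2% of those tested, whose 3 fetal liver arrays all lay above the 3 bone marrow arrays. Both counts follow from how the 4 were selected. With normexp background correction 0 of them kept the call, where 2 of the 135 were called higher. MiR-296-5p alone kept it without scaling (4 called higher of 135) and with the second probe (5 of 135). It was also alone without bone marrow replicate 1 (7 of 135) or 2 (5 of 137). MiR-296-5p and miR-652 kept it in the deposited table (11 of 135) and without bone marrow replicate 3 (3 of 145). These calls rest on the values that selected the 4, so they are no test of them.

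**Figure D2:**
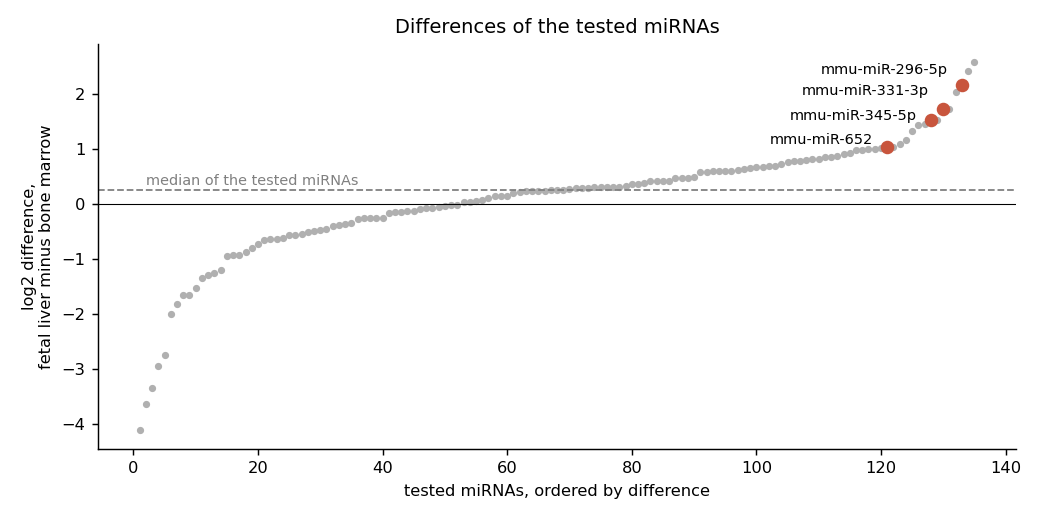
Log2 difference, fetal liver minus bone marrow, of the 135 tested miRNAs in ascending order, with the 4 miRNAs in red and the median of 0.25 dashed. The 4 lie among the 15 highest differences, from 1.03 for miR-652 to 2.17 for miR-296-5p.

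The spread between sorts differed between the tissues and among the 4. In bone marrow the SDs of the 4 log2 levels, 0.10 to 0.16, were under the median SD of the tested miRNAs, 0.161, though 2 of the 3 values of miR-296-5p were at the floor. In fetal liver the median SD was 0.488; miR-296-5p (0.40) and miR-652 (0.12) lay under it, and miR-331-3p (0.89) and miR-345-5p (0.62) above it. Fetal liver replicate 2 exceeded the mean of replicates 1 and 3 by 1.53 in the case of miR-331-3p, 1.04 in that of miR-345-5p, 0.62 in that of miR-296-5p and 0.07 in that of miR-652 on the log2 scale. Over the tested miRNAs the median of this quantity was -0.11, with quartiles of -0.56 and 0.48. The first 3 thus lay above the upper quartile, and miR-652 did not. Scaling multiplied the signals of fetal liver replicate 2 by 1.81 and those of replicate 3 by 0.95. Before scaling, miR-296-5p and miR-345-5p were highest on replicate 3 (63.2 and 55.2, against 57.8 and 53.6 on replicate 2).

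The level of background on each array bears on these dim signals. Of the probes of the same length that were well above background on no array (131 to 137 probes, depending on the length), 0 exceeded the miRNA's own brighter probe, on any of the 6 arrays, for any of the 4. Those probes were picked for never being marked so, so this 0 largely follows from that choice and is no sign of detection. On fetal liver replicate 2 the highest of those probes reached 65.9 for the length of miR-296-5p and miR-345-5p, 76.3 for that of miR-331-3p and 96.5 for that of miR-652. On the other 5 arrays the highest lay between 7.32 and 20.5. The lowest scaled signal called well above background on fetal liver replicate 2 was 106.3, which lies above the signals of miR-296-5p (104.7) and miR-345-5p (97.1) there and under those of miR-331-3p and miR-652. The scanner software's own detection mark per miRNA was set for all 4 on all 6 arrays.

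**Figure D3:**
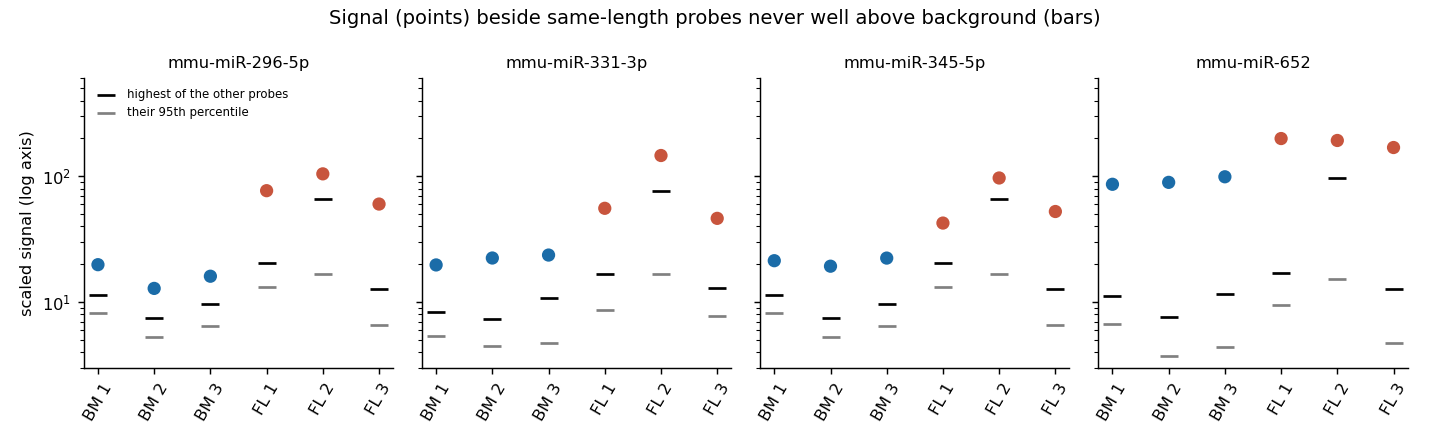
Scaled signal (log axis) of each miRNA's brighter probe on the bone marrow (BM, blue) and fetal liver (FL, red) arrays, beside probes of the same length that were well above background on no array (black bar, their highest; grey bar, their 95th percentile). Each point lies above the black bar of its array, which largely follows from how the other probes were picked. The black bars are highest on FL 2.

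Each miRNA had a second probe that was 1 base shorter, with 10 spots per probe, and no spot of either was saturated. Both probes of miR-296-5p moved together: the second gave 15.0, 9.90 and 12.9 in bone marrow and 55.6, 77.6 and 45.1 in fetal liver, and the brighter over the second ran from 1.25 to 1.38 over the 6 arrays. The second probe of miR-331-3p was under the floor in bone marrow (5.85 to 8.27) and gave 18.7, 66.9 and 20.3 in fetal liver. It was well above background on fetal liver replicate 3 alone.

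For miR-345-5p the second probe was well above background on no array, at 7.47 to 11.7 in bone marrow and 19.6, 75.9 and 15.6 in fetal liver. As with the brighter probe, fetal liver replicate 2 was the highest. The second probe of miR-652 gave 12.2 to 15.3 in bone marrow, and 29.4 and 28.0 in fetal liver replicates 1 and 3. On fetal liver replicate 2 it gave 7.05, with a spot-to-spot coefficient of variation of 180%. The brighter over the second was thus 27.3 on that array, against 6.05 to 7.36 on the other 5. The brighter probe of miR-652 was even there, its coefficient of variation lying between 2.45% and 7.12% over the arrays. The difference between the groups from the second probe was 1.82 for miR-296-5p, 0.84 for miR-331-3p, then 0.82 for miR-345-5p and 0.53 for miR-652 on the log2 scale; every bone marrow value was at the floor, so these could not be negative. With the second probe the groups of miR-345-5p and miR-652 overlapped at the floor.

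The log2 values the authors deposited for the same arrays, which share 1 distribution over the arrays, gave smaller differences in the same direction. MiR-296-5p had deposited log2 values of 5.81, 5.78 and 5.76 in bone marrow and 6.66, 6.99 and 6.66 in fetal liver. MiR-331-3p had 5.81, 6.04 and 5.95 against 6.32, 7.68 and 6.40. Both were thus higher on every fetal liver array, and fetal liver replicate 2 was again the highest. MiR-345-5p had 5.85, 5.96 and 5.95 in bone marrow and 6.08, 6.88 and 6.49 in fetal liver. MiR-652 had 6.93, 7.08 and 7.09 against 7.89, 8.10 and 7.77. The groups overlapped for none of the 4, and the differences were 0.99, 0.86, 0.56 and 0.89 in this order.

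Before the arrays were scaled, the groups overlapped for 3 of the 4 miRNAs. The unscaled signals of miR-652 were 96.4, 145.9 and 100.3 in bone marrow and 129.2, 106.4 and 177.9 in fetal liver, and the log2 difference was 0.26. The unscaled signals of miR-296-5p, 22.1, 21.0 and 16.3 against 49.8, 57.8 and 63.2, did not overlap. Those of miR-331-3p and miR-345-5p overlapped through bone marrow replicate 2. Scaling on the 75th percentile over all mouse probes still left the groups of miR-345-5p and miR-652 overlapping. Without scaling the tested miRNAs had a median of -0.50 and miR-652 lay 0.77 above that; a scaling factor shifts all miRNAs of an array alike, so the distance from the median, 0.78 with scaling, hardly depends on it. Over the scalings tried and the deposited table, the difference relative to the median of the tested miRNAs ran from 0.97 to 2.03 for miR-296-5p, from 0.85 to 1.47 for miR-331-3p, from 0.55 to 1.27 for miR-345-5p and from 0.77 to 1.11 for miR-652.

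**Figure D4:**
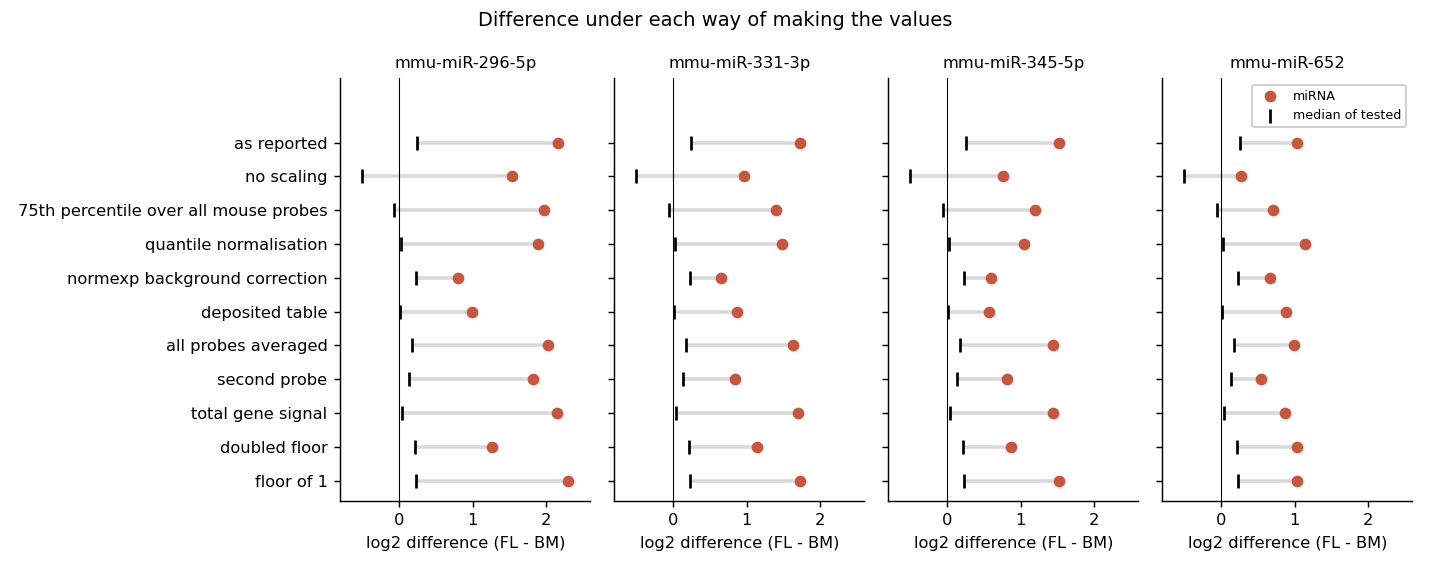
Log2 difference (fetal liver, FL, minus bone marrow, BM) of each miRNA (red points) under 11 ways of making the values, with the median difference of the 135 tested miRNAs under the same setting (black ticks). All red points lie to the right of 0 and of their tick, and the smallest is 0.26 for miR-652 without scaling.

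The partner arms were not detected. The array carries 4 probes of 5 spots each for miR-296-3p, miR-331-5p and miR-345-3p, and 0 probes for a partner of miR-652. Their sequences, with the seed in capitals, show which strand of each hairpin those probes read.
mmu-miR-296-3p: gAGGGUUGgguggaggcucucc
mmu-miR-331-5p: cUAGGUAUggucccagggaucc
mmu-miR-345-3p: cCUGAACUaggggucuggagac
All 12 probes lay at the floor and none was well above background on any array, so no difference could be measured for these arms. They were 10 to 14 bases long, where the probes of the 4 miRNAs were 15 to 19, and the part of probe length in this was not tested. Across the 133 tested miRNAs with a probe length, length and difference had a Spearman correlation of -0.178 over miRNAs that share the same arrays. The 69 tested miRNAs with probes of 16 to 19 bases had a median difference of 0.24.

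MiR-298 is encoded beside miR-296, with 398 bases between their nearest mature arms. Its brightest probe gave 10.1, 6.05 and 10.5 in bone marrow and 22.8, 53.4 and 20.0 in fetal liver. No bone marrow array marked it well above background, while fetal liver replicates 1 and 3 did, so it was not tested. The software's own detection mark per miRNA was set for it on all arrays except fetal liver replicate 2, where its signal also lay under the lowest one called well above background (106.3). All 3 bone marrow values of this probe lay under the floor and all 3 fetal liver values above it, a log2 difference of 0.82. On its other probes fetal liver replicate 3 lay under the floor, as did every bone marrow value, and only replicates 1 and 2 lay above it. Their log2 differences were 0.31, 0.46 and 0.29, and with bone marrow at the floor these could not be negative. On the probe with 0.29, fetal liver replicate 3 lay under bone marrow replicate 1 before the floor was applied.

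Profiles over the 6 arrays were compared after centring each on its own mean, by the mean absolute difference on the log2 scale. The 4 lay 0.24 to 0.57 apart, closest for miR-331-3p with miR-345-5p and farthest for miR-296-5p with miR-652. Most like miR-296-5p were miR-721 (0.20), miR-345-5p (0.32) and miR-714 (0.34). Most like miR-331-3p were miR-721 (0.21), miR-18a* (0.21), the passenger arm of miR-18a from the cluster of miR-17 to miR-92a, and miR-345-5p (0.24). Most like miR-345-5p were miR-18a* (0.20), miR-331-3p (0.24) and miR-721 (0.27).

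Closest to miR-652 was a different set: miR-181d (0.15), a member of the miR-181 family, miR-342-3p (0.15), which lies in an intron of Evl, and miR-103 (0.17), which lies in introns of Pank genes. For comparison, the median over the tested miRNAs was 0.97 from miR-296-5p, 0.83 from miR-331-3p, 0.74 from miR-345-5p and 0.55 from miR-652. The log2 levels of miR-721 were 4.44, 4.49 and 4.60 in bone marrow and 6.32, 7.24 and 6.05 in fetal liver. Like the first 3 of the 4, it was highest on fetal liver replicate 2. The log2 levels of miR-103 were 6.30, 6.43 and 6.43 against 7.34, 7.12 and 7.67, with replicate 2 the lowest of the fetal liver sorts.

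**Figure D5:**
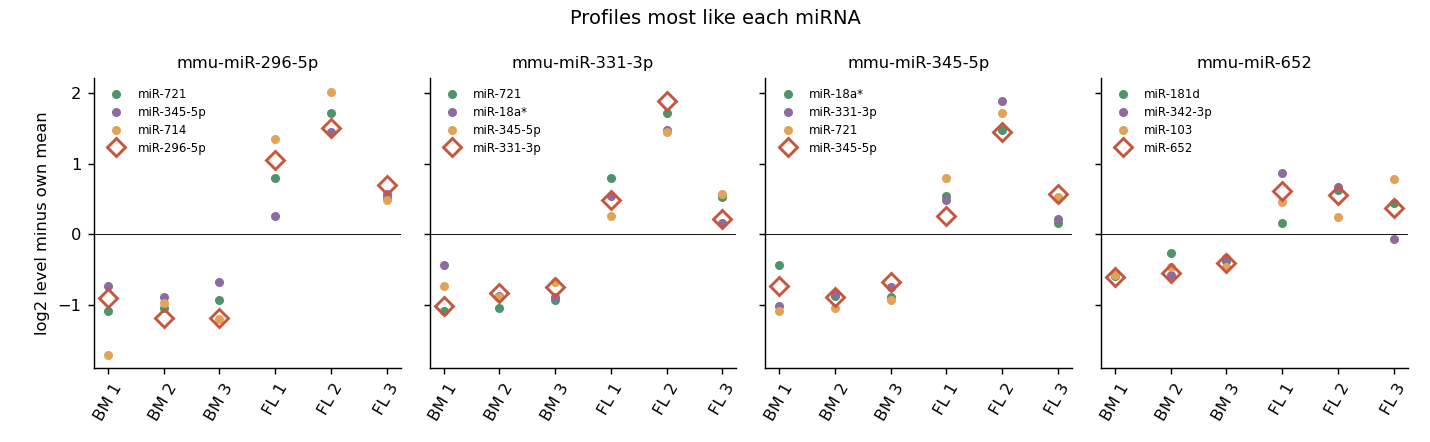
Log2 level minus its own mean over the 6 arrays (BM, bone marrow; FL, fetal liver) for each of the 4 miRNAs (open diamonds) and the 3 tested miRNAs with the most similar profile (dots). The profiles like miR-296-5p, miR-331-3p and miR-345-5p peak on FL 2, and those like miR-652 differ in which fetal liver array is highest.

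Some markers of erythroid and myeloid cells also differed between the groups. Of 3 erythroid miRNAs, 1 was tested and rose: miR-451, a red cell lineage miRNA, by 2.41 on the log2 scale with an SE of 0.31 (limma, Benjamini-Hochberg adjusted p = 0.00252). The summed scaled signal of that list was 121 to 184 in bone marrow and 524 to 779 in fetal liver. In this and the other list sums, each miRNA under the floor adds the floor itself. MiR-144, made from the same transcript as miR-451, lay at the floor everywhere. The third, miR-486, was at the floor in bone marrow and had log2 levels of 5.90, 5.95 and 4.65 in fetal liver, but was not tested. It was well above background on 2 arrays of each tissue. Of 4 myeloid miRNAs, both tested ones, miR-223 and miR-146a, fell, with differences of -2.00 and -3.64 on the log2 scale (limma adjusted p = 0.00786 and 0.000576; miR-146a was at the floor on 2 fetal liver arrays). The untested miR-511 was at the floor in bone marrow and had log2 levels of 4.62, 6.14 and 4.04 in fetal liver, opposite in sign to those. It was well above background on 1 array of each tissue. Its 6.14, on fetal liver replicate 2, lay under the lowest level marked well above background there (6.73). MiR-146b was at the floor everywhere. The myeloid list's sum was 424 to 757 in bone marrow and 116 to 173 in fetal liver. The part of erythroid or myeloid cells in the differences of the 4 miRNAs was not tested.

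Of the 3 hepatocyte miRNAs, miR-192 and miR-194 lay at the floor everywhere, and miR-122, the main liver miRNA, was well above background only on fetal liver replicate 1. The list's sum was 49.4 on each bone marrow array, 3 times the floor, and 49.4 to 64.7 in fetal liver. None of the 5 stromal miRNAs on the array was well above background anywhere. Of 2 endothelial miRNAs, miR-126-3p was tested and had a difference of -0.15 (limma adjusted p = 0.788). It was at the floor on fetal liver replicate 2, with log2 levels of 4.77 and 5.60 on replicates 1 and 3. In bone marrow its levels were 4.82 to 5.16. The list's sum was 44.8 to 52.1 in bone marrow and 32.9 to 64.9 in fetal liver, where the lowest, on replicate 2, held floor values only. All 5 lymphoid miRNAs were tested, 1 fell (miR-181a, by 1.25, limma adjusted p = 0.0252), and their sum was 830 to 1216 in bone marrow and 805 to 1291 in fetal liver. Of these lymphoid miRNAs, miR-155 and miR-142-3p, both typical of blood cells, were well above background on all 6 arrays.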

How the data were processed

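Per the labels' protocols, 100 ng of TRIzol-isolated total RNA per sort was end-labelled with Cy3. Per the file headers, Agilent Feature Extraction 9.5.3.1 read the arrays, whose design is annotated on mm9; the deposited intensity of each spot is background-subtracted within its array and can be negative, and the flags are 0 or 1. The authors also deposited log2 values per spot; how their background was corrected is not stated in those sources.

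Spots of a probe were averaged without outliers. Scaling divided an array's signals by their 75th percentile over the 82 probes that every array marked well above background. The floor was the 5th percentile of such marked, scaled signals (median of the 6 arrays). Each miRNA took its probe with the highest mean log2 level. The 135 tested miRNAs were fitted in limma 3.58.1 (R 4.3.3; lmFit, eBayes), and a call is an adjusted p under 0.05. The fit was also run on simulated data with equal noise in both groups and no floor. That run does not cover the wider spread in fetal liver or the values at the floor. Precision is limited by the number of arrays. Alternatives were other scalings, normexp (offset 50), probe, floor and filter rules, the deposited table, a replicate block and leaving out arrays. Named were the 4 miRNAs, their partner arms, miR-298, the 3 most similar profiles each, and markers. The members and lists were chosen with earlier results of these data known. Sequences are RefSeq's (GRCm38.p6).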

Additional observations from a re-analysis of the deposited data

How the results depend on the processing

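All 4 differences were above 0 under the 17 alternatives run for them, which is no sign of stability: the 4 were chosen for that direction on these values, the second probe and (except for miR-652) the doubled floor put every bone marrow value at the floor, and the replicate block leaves the differences as they are. They moved by more than the spread within groups as follows, in the order miR-296-5p, miR-331-3p, miR-345-5p, miR-652. Without scaling they were 1.53, 0.96, 0.75 and 0.26. With normexp they were 0.80, 0.65, 0.59 and 0.67, and all groups overlapped, bone marrow replicate 3 lying above at least 1 fetal liver array for each (its log2 values were 7.73, 7.75, 7.75 and 7.97). The deposited table gave 0.99, 0.86, 0.56 and 0.89, and the second probe 1.82, 0.84, 0.82 and 0.53. A doubled floor gave 1.26 for miR-296-5p and 0.87 for miR-345-5p, quantile normalisation 1.05 for miR-345-5p, and for miR-652 the percentile over all mouse probes gave 0.71 and the total signal per miRNA 0.87. The cause was not tested. Leaving out each array gave 1.96 to 2.36, 1.21 to 2.04, 1.17 to 1.77 and 0.98 to 1.10.

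The count of 29 called miRNAs was 9 with normexp, 13 with the second probe, 12 with no filter on detection (567 tested) and 19 with only the 52 miRNAs well above background on all 6 arrays. Leaving out each array gave 11 to 43, with 19, 16 and 11 without bone marrow replicates 1, 2 and 3. All 4 were called without fetal liver replicate 2 (18 called higher of 144 tested) or 3 (28 of 135). With a floor of 1 (10 of 135), the replicate block (10 of 135) or without fetal liver replicate 1 (11 of 135), 3 were called. The percentile over all mouse probes (6 of 135), quantile normalisation (9 of 135) and all probes averaged (9 of 135) left 2 called. So did the total signal per miRNA (6 of 135), a doubled floor (12 of 135) and no filter on detection (3 of 567). Among the 52, where 14 were called higher, 2 of 2 tested were called. The split of higher and lower calls was 14 and 15 as reported, 4 and 20 without scaling, 6 and 15 when scaled on all mouse probes, 9 and 17 after quantile normalisation, and 11 and 18 with the authors' log2 values, and the median of the tested miRNAs was then -0.50, -0.06, 0.03 and 0.02. It was 2 and 7 with normexp, 14 and 5 among the 52, and 28 and 15 without fetal liver replicate 3. At an unadjusted p under 0.05, limma gave 44 miRNAs. Same-numbered sorts shared a number and, for replicates 1 and 3, also a slide column (1 and 4). Their deviations correlated at 0.17, -0.12 and -0.24. A replicate block gave 23 calls and cannot move the 4 differences. Signals near background, above all on fetal liver replicate 2, limit what can be measured.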
